A study of Mus musculus with 5 samples.

Results

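Ferlins are large membrane proteins that carry several C2 domains, modules that bind calcium and phospholipids, and that are anchored by a single stretch near the C-terminus. The 5 genes described here, Dysf, Myof, Otof, Fer1l5 and Fer1l6, were taken by name from the 54232 genes of the table. Of the 5, 3 (Dysf, Myof and Fer1l6) passed the filter on low values, 5 or more normalized counts in 1 sample or more, and were tested among 18156 genes. RNA was sequenced from primary myoblasts of mice aged 6 to 8 weeks, obtained from leg muscle with a magnetic satellite cell kit and integrin-α7 beads, which are meant to remove other cell types, and kept in differentiation medium for 72 h. The samples came from WT mice (n = 3) and from Elmo2EID/EID mice (n = 2, called EID below), which carry in both copies of Elmo2 a knock-in mutation that favours the open conformation of the protein. The knock-in is present in every cell of the mouse, all animals of the study were on a mixed C57BL6 and 129SV background, and the study says of primary cells in general that they typically came from independent mice, but not whether each of these samples did, so the tests measure the spread between these samples, which may in part be technical.

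In skeletal muscle, dysferlin (Dysf) takes part in the patching of torn plasma membrane and in the upkeep of the T-tubules, and its loss causes a limb-girdle muscular dystrophy. Myoferlin (Myof) is known from myoblasts, where it supports membrane traffic and fusion, and Fer1l5 has also been tied to myoblast fusion. Otoferlin (Otof) drives the release of synaptic vesicles in inner hair cells of the ear. The role of Fer1l6 is less well known. Dysf was among the genes of the fusion machinery examined in the study, which asked whether a lasting change of Elmo2 conformation alters their expression. From its RNA sequencing the study itself reported higher Dysf expression in the EID myoblasts.

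The recovered totals were between 35021856 and 49381544 reads per sample, so that 3 reads, taken as the floor, corresponded to 2.65 to 3.73 normalized counts. The 12 genes chosen to mark myoblasts and myotubes were all expressed, with a mean of 15.85 to 15.99 over the WT samples and of 15.91 and 15.97 in the EID samples on the scale of log2(normalized count + 1). None of the 12 was called by limma, edgeR or DESeq2. For 3 of them both EID values were above all WT values, for 4 they were below, and 3 had an unadjusted p under 0.05, against 16.7%, 15.9% and 15.2% of all tested genes. The most abundant, Myh3, Acta1, Myh8 and Des, had log2 fold changes of -0.22, 0.0029, 0.17 and -0.12 (limma adjusted p = 0.622, 0.994, 0.676 and 0.563). The widest was Myf5, a myoblast transcription factor named after its values were seen, with 3122, 2188 and 4399 normalized counts in WT and 5152 and 5254 in EID (log2 fold change 0.74 ± 0.26 SE, limma adjusted p = 0.237).

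On GRCm38, Dysf (ENSMUSG00000033788) spans chromosome 6 from 84008590 to 84211060 on the plus strand, and Myof (ENSMUSG00000048612) chromosome 19 from 37899036 to 38043577 on the minus strand. Fer1l6 (ENSMUSG00000037106) lies on chromosome 15 from 58510048 to 58665092, Fer1l5 (ENSMUSG00000037432) on chromosome 1 from 36372291 to 36422110, and Otof (ENSMUSG00000062372) on chromosome 5 from 30367062 to 30461932. RefSeq gives Dysf 2 start sites, 10788 bases apart, of which the first lies 8 bases and the second 10796 bases after the start of the gene in the annotation. Reads were counted per gene, so the values below sum over both starts and do not tell them apart. The 250 bases before each Dysf start and before the Myof start are shown because these are the 2 abundant members, which differed in their response. The sequences are from RefSeq on GRCm38.p6, run 5′ to 3′ on the strand of the gene, and carry each CG dinucleotide in capitals.
Dysf, first start, chr6:84008348-84008597, plus strand: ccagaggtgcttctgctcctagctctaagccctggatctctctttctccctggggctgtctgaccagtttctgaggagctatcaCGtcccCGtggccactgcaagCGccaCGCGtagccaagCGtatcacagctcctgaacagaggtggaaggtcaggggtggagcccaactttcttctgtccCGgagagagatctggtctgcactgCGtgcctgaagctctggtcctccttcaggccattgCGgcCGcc
Dysf, second start, chr6:84019136-84019385, plus strand: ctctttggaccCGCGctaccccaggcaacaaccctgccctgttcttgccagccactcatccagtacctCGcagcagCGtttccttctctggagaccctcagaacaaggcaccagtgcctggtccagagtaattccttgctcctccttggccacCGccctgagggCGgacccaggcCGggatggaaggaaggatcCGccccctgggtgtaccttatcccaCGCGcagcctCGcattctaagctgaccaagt
Myof, chr19:38043578-38043827, minus strand: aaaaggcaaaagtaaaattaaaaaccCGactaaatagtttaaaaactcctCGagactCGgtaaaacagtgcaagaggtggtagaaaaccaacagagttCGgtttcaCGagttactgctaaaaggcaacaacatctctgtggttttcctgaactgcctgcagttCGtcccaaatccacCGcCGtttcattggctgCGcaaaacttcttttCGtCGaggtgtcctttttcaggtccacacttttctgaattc

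The 3 windows held 10, 11 and 11 CG dinucleotides, against a median of 6 over the 32851 promoter windows of the same length. The share of all windows with at least as many was 37.8% for the first and 35.6% for the other 2, so their CG content was not unusual. GC made up 60.0% and 61.2% of the Dysf windows and 42.8% of the Myof window. The E-box CANNTG, the motif of the myogenic transcription factors, reads the same on both strands and had no match in any of the 3, while 66.2% of all windows held at least 1. The window of Fer1l5, the other member with an entry, held 1 match and 2 CG dinucleotides. The narrower form CAGCTG, contained in CANNTG, occurred in 13.0% of all windows. The absence of a match says only that these letters are not in these windows.

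Dysf was the member that changed. The WT samples had 10596, 11201 and 9953 normalized counts and the EID samples 25968 and 26828. The groups did not overlap, and the lower EID sample was 2.32 times the highest WT sample. The means were 10584 ± 624 (SD, n = 3) and 26398 ± 608 (SD, n = 2), a ratio of 2.49. In limma, with log2(normalized count + 1) as the scale and EID set over WT, the log2 fold change was 1.32 ± 0.071 (standard error), with a 95% interval of 1.15 to 1.49 or 2.22 to 2.81 times the WT level. The p-value adjusted by Benjamini-Hochberg over all tested genes was 0.000595. These values rest on 11993, 9986 and 8007 reads in WT and 29036 and 29926 reads in EID.

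Of the 3 tested members, 1 (Dysf) was called, and of all tested genes 2.23% were called in either direction and 1.09% as higher in EID. On the recovered reads, edgeR and DESeq2 also called Dysf and neither Myof nor Fer1l6, against 2.25% and 5.34% of all tested genes. By its p-value Dysf stood in place 13 of 18156. It moved from place 682 by mean normalized count in WT to place 197 in EID. Ordered by positive log2 fold change among the 11223 tested genes that averaged 100 normalized counts or more, it came in place 83, and every gene before it was less abundant. The plot of change against level shows Dysf at the upper right edge of the cloud of genes.

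**Figure D1:**
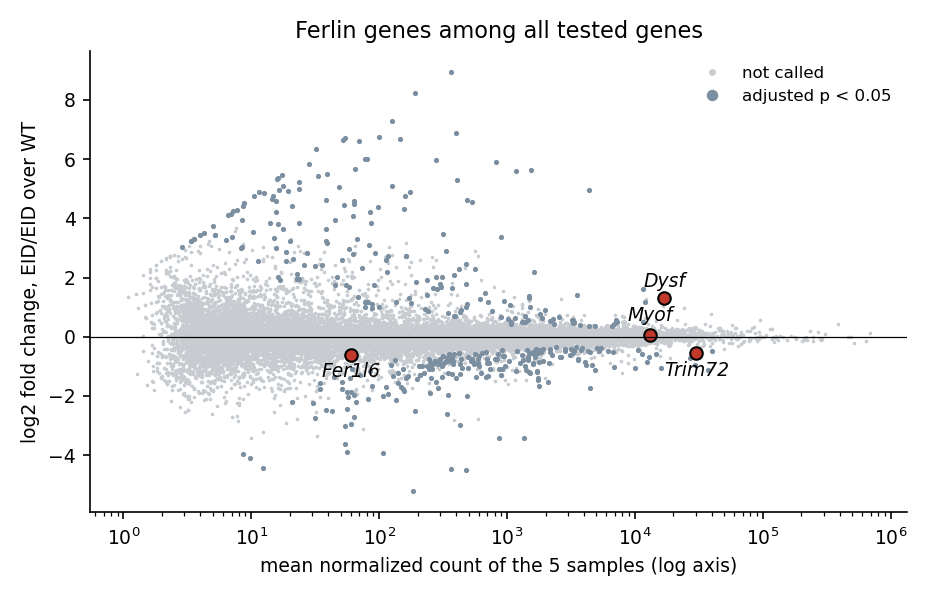
Log2 fold change of EID over WT against the mean normalized count of the 5 samples (log axis), 1 point per tested gene, with the 404 called genes darker and the 3 tested ferlins and Trim72 named. Dysf lies at 1.32 and Myof at 0.064 although both lie far to the right on the axis of levels.

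Dysf was also higher relative to the muscle markers. Taken as a log2 difference from the mean of the 12 myoblast and myotube markers, Dysf was at -2.57, -2.53 and -2.57 in WT and at -1.24 and -1.26 in EID. The difference of 1.31 had an exact permutation p of 0.1, the smallest that 3 against 2 samples allow (two-sided). With the whole table set relative to these markers, a scaling added once results were known, the log2 fold change of Dysf was 1.31 and the adjusted p 0.000157 (limma with Benjamini-Hochberg adjustment).

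Markers of endothelial cells were examined beside Dysf. Of 12 such genes, 11 had both EID values above all WT values, Cldn5 being the exception, against 16.7% of all tested genes. None of the 12 was called by limma, and 9 had an unadjusted p under 0.05, against 15.2% of all tested genes. On the recovered reads, edgeR called 2 of the 12 higher (Flt1 and Robo4) and DESeq2 called 5 (Flt1, Robo4, Tie1, Esam and Erg), against 2.25% and 5.34% of all tested genes called in either direction. Their summed normalized counts were 991, 246 and 1049 in WT and 2687 and 4000.1 in EID, and no gene of the list was at 0 in all samples. The log2 fold changes of the most abundant, Emcn, Cdh5, Pecam1 and Flt1, were 2.91, 2.31, 2.57 and 3.02 (limma adjusted p = 0.143, 0.165, 0.188 and 0.0694). WT replicate 2, with the lowest sum, had the highest Dysf value of the WT samples. In bulk RNA, more cells of a type and more RNA per cell cannot be told apart, and the part of the endothelial RNA in the Dysf difference was not tested. Markers of fibroblasts and fibro-adipogenic cells summed to 1493, 218 and 1168 in WT and 1158 and 1287 in EID, and Lum and Pi16 were at or under 3 reads in every sample. Schwann cell markers summed to 223, 146 and 486 against 555 and 358, with Ncmap at or under 3 reads throughout. Macrophage markers summed to between 22.4 and 30.3 in WT and 72.4 and 35.9 in EID, with Fcgr1 at 0 and Ptprc at or under 3 reads in every sample. Of the 6 fibroblast, 7 Schwann cell and 4 macrophage genes tested, 0 were called by limma, edgeR or DESeq2, against 2.23%, 2.25% and 5.34% of all tested genes. All of these had a positive log2 fold change, with medians of 1.10, 1.09 and 0.56, against 0.011 over all tested genes. Both EID values were above all WT values, with an unadjusted p under 0.05, for 2 of the fibroblast genes (Dcn and Cd34) and 1 of the macrophage genes (Cd68), against 16.7% and 15.2% of all tested genes. The part of these cells in the Dysf difference was not tested.

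Myof had 13116, 12532 and 13037 normalized counts in WT and 13389.9 and 13571 in EID. Both EID values were above every WT value, by a margin of 1.02 times at the nearest, and 32.6% of all tested genes had groups that did not overlap, 16.7% with EID above. The means were 12895 ± 317 (SD, n = 3) and 13480.4 ± 128 (SD, n = 2). The log2 fold change of 0.064 (SE 0.058, limma adjusted p = 0.673) did not pass. Its 95% interval ran from -0.073 to 0.20, or 0.950 to 1.15 times the WT level, and 1.32, the value of Dysf, lies outside it. Myof was the steadiest member in WT, with a coefficient of variation of 2.46% against 5.90% for Dysf and 41.2% for Fer1l6.

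Fer1l6 was expressed at a low level. It had 79.5, 95.3 and 38.5 normalized counts in WT (90, 85 and 31 reads) and 51.9 and 34.96 in EID (58 and 39 reads). WT replicate 3 fell between the EID samples, so the groups overlapped. The means were 71.1 ± 29.3 (SD, n = 3) and 43.4 ± 11.96 (SD, n = 2), and the log2 fold change of -0.63 (SE 0.41, limma adjusted p = 0.539) did not pass. The 95% interval was wide, from -1.61 to 0.35. Without WT replicate 3 the log2 fold change was -1.01 (adjusted p = 0.158), and without EID replicate 2 it was -0.35 (adjusted p = 0.871, both from limma).

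Fer1l5 and Otof were at the floor and were not tested. Fer1l5 had 1, 2 and 0 reads in WT and 1 and 2 reads in EID. Otof had a single read in all, in WT replicate 2. Fer1l4, a ferlin gene outside the 5 (ENSMUSG00000013338, chromosome 2, 156019139 to 156052947), had 0 reads in every sample. Transcripts of these 3 genes were thus not detectable above 2.65 to 3.73 normalized counts at this depth. The hair cell transcription factor genes Pou4f3 and Atoh1 and the neuronal Snap25 were also at 0 in every sample. Other genes of the same list of hair cell and neuron markers were not at 0. Slc17a8, Gfi1 and Ush1c had at most 12, 11 and 4 reads in a sample, and Tubb3 had 287 to 435 normalized counts. Myo7a, the myosin of hair cell bundles that is also used in other cells, was expressed and lower in EID (555, 582 and 533 against 245 and 290.5 normalized counts, log2 fold change -1.06 ± 0.11 SE, limma adjusted p = 0.00696). It was 1 of the 4 tested genes of the hair cell and neuron list, of which the other 3 were not called, against 1.14% of all tested genes called lower. The call did not hold without either EID sample (limma adjusted p = 0.0632 without replicate 1 and 0.0517 without replicate 2) or without the trend in limma (adjusted p = 0.0516).

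**Figure D2:**
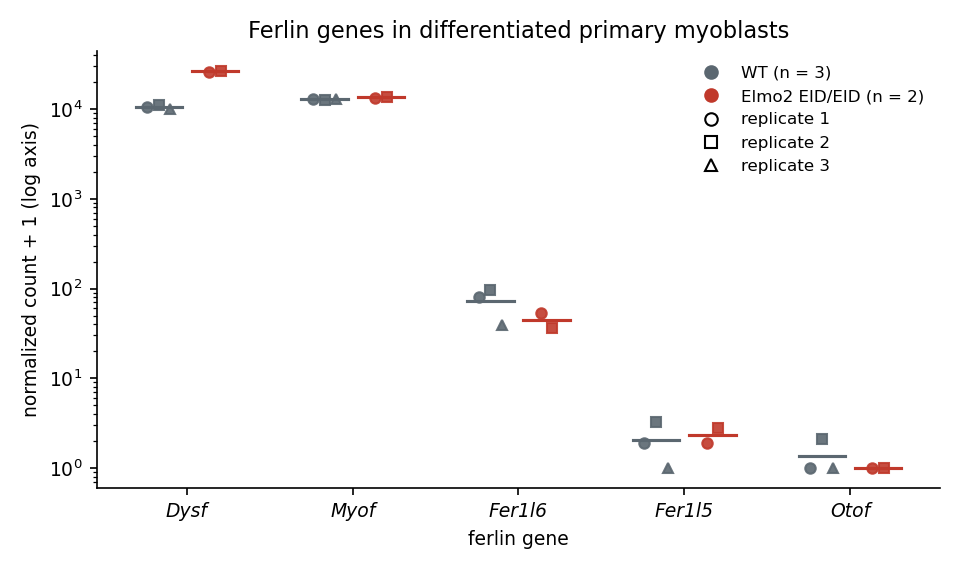
Normalized count + 1 (log axis) of the 5 ferlin genes in each WT sample (grey, n = 3) and each EID sample (red, n = 2), with horizontal lines at the group means and the marker shape giving the replicate number. Dysf separates by genotype, Myof lies between 12532 and 13571 normalized counts in all samples, Fer1l6 overlaps between the groups, and Fer1l5 and Otof lie at 0 to 2 reads.

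Reads could be told apart between the members. No stretch of 50 bases, the read length, was shared between the annotated transcripts of any of the 10 pairs of members. For Dysf, 265 of 8505 such stretches (3.12%) also occurred in other genes, all in Gm15475 and Gm33024, antisense genes within the Dysf locus. These had at most 9 and 10 reads in any sample, and the counting used strand. The pseudogene Gm7498, on the same strand inside Dysf, had at most 4 reads. Myof, Fer1l6 and Otof shared no stretch with another gene, and Fer1l5 shared 9 of 6450 with Lman2l, which overlaps its end on the opposite strand.

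Levels of different genes can be compared only per length. Merged exons measured 8328 bases for Dysf and 12603 for Myof, and the longest protein-coding transcripts, a length added once results were known, 6803 and 7094 bases. In EID the order by level per kilobase of merged exons was Dysf (3118 and 3221), Myof (1062 and 1077) and Fer1l6 (6.44 and 4.34), with Fer1l5 and Otof at the floor. In WT it was Dysf (1272, 1345 and 1195), Myof (1041, 994 and 1034) and Fer1l6 (9.87, 11.8 and 4.79). Per kilobase of the longest coding transcript, however, Myof (1849, 1767 and 1838) was above Dysf (1558, 1647 and 1463) in WT. The order of Dysf and Myof in WT therefore turned on the length used, while in EID Dysf was above Myof on both lengths.

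The make-up of the ferlin transcripts differed between the genotypes by more than the spread of the samples. In normalized counts the ratio of Dysf to Myof was 0.808, 0.894 and 0.763 in WT and 1.94 and 1.98 in EID. The log2 ratio, whose difference between the groups does not depend on gene length, was -0.29 ± 0.12 (SD, n = 3) and 0.97 ± 0.02 (SD, n = 2). The difference of 1.26 had an exact permutation p of 0.1, the smallest possible (two-sided), and so could not reach 0.05. With each sample left out in turn it stayed between 1.20 and 1.32.

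Dysf made up 44.5%, 47.0% and 43.2% of the summed ferlin counts in WT (Wilson 95% intervals 43.9% to 45.1%, 46.3% to 47.7% and 42.5% to 43.9%). In EID it made up 65.9% (65.4% to 66.3%) and 66.3% (65.9% to 66.8%). The intervals cover counting error only. Both EID shares were above all WT shares, with a difference of the means of 21.2 percentage points (exact permutation p = 0.1, the smallest possible). Myof accordingly went from 52.6% to 56.6% in WT to 34.0% and 33.6%, although its own level did not pass the test. Fer1l6 held 0.334%, 0.400% and 0.167% in WT and 0.132% and 0.0865% in EID. Fer1l5 and Otof held at most 0.00941% and 0.00471% in a sample, with upper 95% limits of at most 0.0343% and 0.0267%.

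**Figure D3:**
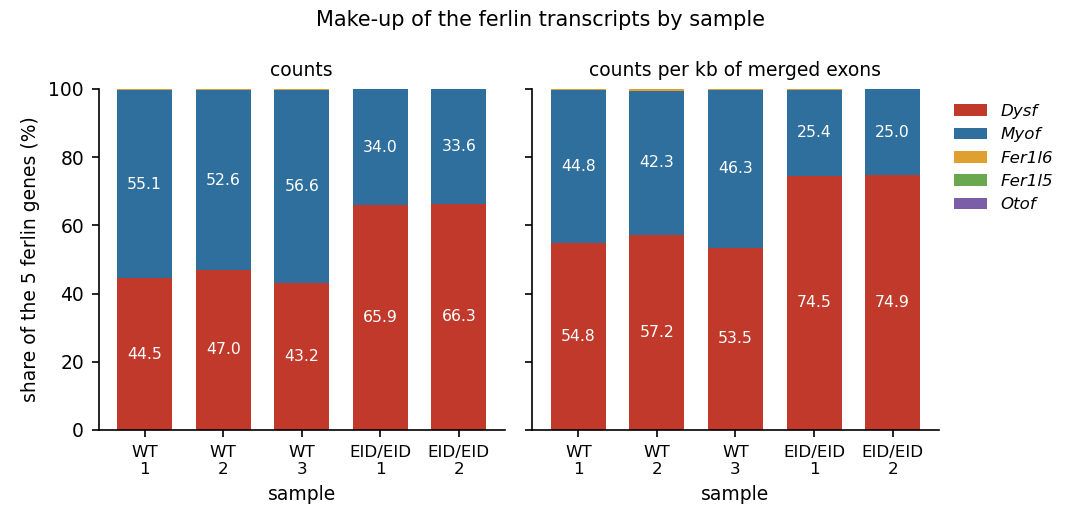
Share of each gene in the summed counts of the 5 ferlins by sample (%), in normalized counts (left) and per kilobase of merged exons (right), with the Dysf and Myof shares printed in the bars. The Dysf share runs from 43.2% to 47.0% over WT and is 65.9% and 66.3% in EID on the left, and 53.5% to 57.2% against 74.5% and 74.9% on the right.

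Summed over the 5 members, the ferlin counts were 23793, 23832 and 23029 in WT and 39410.5 and 40436 in EID. The groups did not overlap, and the sum differed by 0.76 on the log2 scale (exact permutation p = 0.1, the smallest possible). Of the difference of 16372 normalized counts between the means, Dysf supplied 15814, or 96.6%. The counts of Myof were not lower in either EID sample than in WT.

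Few genes had a profile like that of Dysf. Likeness was measured as the root mean square difference of log2(normalized count + 1), centred on the mean of each gene, over the 5 samples and among 10793 other protein-coding genes that averaged 100 normalized counts or more. Within 0.1 of Dysf lay 2 genes. Among the close genes were Kbtbd12 (0.096), 2210011C24Rik (0.122), Cd200 (0.134) and Limch1 (0.169). Kbtbd12, which like Dysf lies on chromosome 6, had 383, 463 and 344 normalized counts in WT and 893 and 998 in EID. Limch1, an actomyosin regulator, was the most abundant of these 4, with 8417, 9474 and 6306 against 16437 and 19096. For Myof, 4884 genes lay within 0.1, the nearest being Eps15l1, Strn, Tab3, Ccdc28a and Selenot (0.006 to 0.009), as its profile was nearly flat. Likeness over 5 samples of 2 genotypes is a description and was not tested.

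Neither gene next to Dysf on chromosome 6 passed the test. Zfp638, whose end lies 19040 bases before Dysf, had 4245, 4136 and 4220.2 normalized counts in WT and 4395 and 4461 in EID (log2 fold change 0.076 ± 0.056 SE, limma adjusted p = 0.589). Cyp26b1, a retinoic acid hydroxylase 360354 bases after Dysf, had 219, 90.9 and 237 against 349 and 333 (log2 fold change 1.02 ± 0.40 SE, limma adjusted p = 0.290). Without WT replicate 2, its lowest sample, the log2 fold change was 0.58 (limma adjusted p = 0.127). For both genes the EID values were above all WT values, as for 16.7% of all tested genes. Beside Myof, the log2 fold changes of Cep55 and Cyp26a1 were 0.35 and 0.32 (adjusted p = 0.493 and 0.886 from limma), and the groups overlapped for both. Cyp26a1 was near the floor, with 1.77, 11.2 and 13.7 normalized counts in WT and 8.05 and 9.86 in EID. Without WT replicate 1 the log2 fold change of Cyp26a1 was -0.43.

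**Figure D4:**
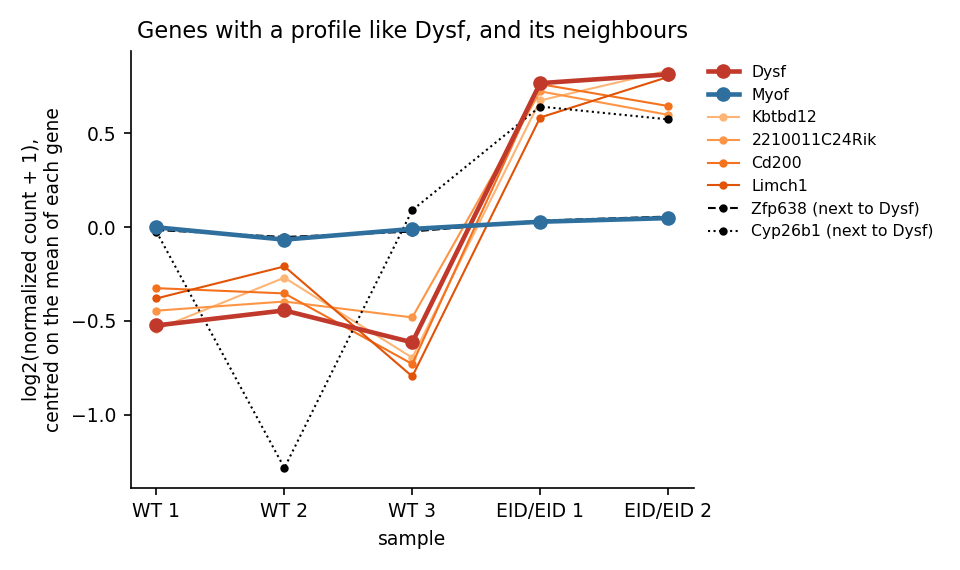
Log2(normalized count + 1), centred on the mean of each gene, in the 5 samples for Dysf (red), Myof (blue), 4 genes close to Dysf (orange) and the neighbours of Dysf (black, broken lines). Dysf and the 4 close genes lie higher in EID than in WT in every sample, while Myof and Zfp638 stay within 0.1 of their mean and Cyp26b1 is lowest in WT replicate 2.

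Proteins known to work with dysferlin and myoferlin were examined as a list of 16 genes. All 16 were tested, 0 were called higher and 1 was called lower, Trim72, against 1.14% of all tested genes called lower. Of the 16, Bin1, Cav3 and Dnm2 are also among the T-tubule genes described next, Capn3 among the muscular dystrophy genes and Syt7 among the genes with several C2 domains. The list had a median log2 fold change of 0.017, against 0.011 over all tested genes. In 2 of the 16 the EID values lay above all WT values and in 5 below them, against 16.7% and 15.9% of all tested genes. An unadjusted p under 0.05 in limma was reached by 4 of the 16, against 15.2%. Trim72 encodes MG53, a muscle protein that gathers vesicles at membrane wounds. It had 34732, 33826 and 35527 normalized counts in WT and 25931 and 21268 in EID. Both EID samples were below every WT sample, in the direction opposite to Dysf. Its log2 fold change was -0.56 (SE 0.094, limma adjusted p = 0.0376). The call did not hold with any 1 of the 5 samples left out (adjusted p 0.0586 to 0.204 by limma), with no filter on low values (0.119) or without the trend in limma (0.169), while edgeR and DESeq2 on the recovered reads also made it (adjusted p = 0.0387 and 1.02e-05).

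Of the 15 partners that did not pass, the most abundant were Ahnak, Bin1, Cavin1 and Cav3. Ahnak, a very large scaffold protein that binds dysferlin, had 72137, 81478 and 70606.5 normalized counts in WT and 81197 and 88843 in EID (log2 fold change 0.19, limma adjusted p = 0.411). Bin1, which bends membrane into T-tubules, had a log2 fold change of -0.093 (adjusted p = 0.639 by the same test). The caveola proteins Cavin1 and Cav3 were at 0.043 and 0.054 (adjusted p = 0.872 and 0.893). The log2 fold changes of all 16 ran from -0.87 in Syt7, a calcium sensor of lysosome exocytosis with under 30 normalized counts, to 0.33 in Parvb, a focal adhesion protein that binds dysferlin.

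**Figure D5:**
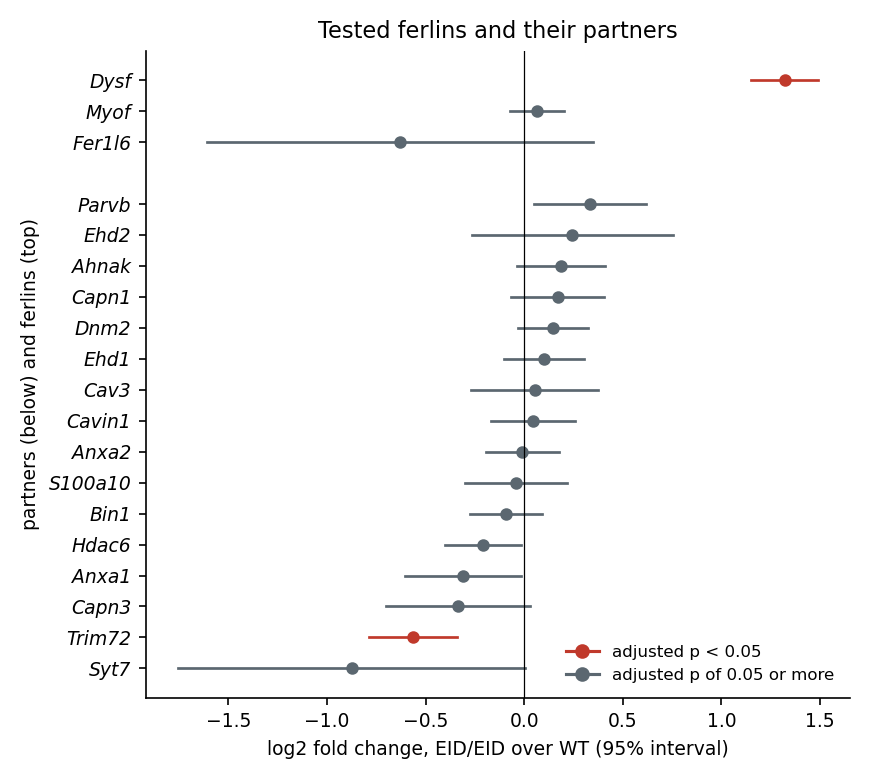
Log2 fold change of EID over WT with its 95% interval from limma for the 3 tested ferlins (top) and the 16 partner genes (below), red where the adjusted p was under 0.05. Dysf (1.32) and Trim72 (-0.56) are the 2 genes called, and the interval of Myof spans 0.

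Dysferlin is also placed at the T-tubules, the inward folds of the muscle membrane. Of 10 T-tubule and triad genes, 0 were called by limma, edgeR or DESeq2, and 0 had an unadjusted p under 0.05 in limma. Over all tested genes the calls came to 2.23%, 2.25% and 5.34%, so a count of 0 among 10 is near the background, and 15.2% had an unadjusted p under 0.05. Both EID values were above all WT values for 4 of the 10 and below them for 1, against 16.7% and 15.9% of all tested genes. Their median log2 fold change was 0.076. Ryr1, the calcium release channel, had 102221, 114804 and 96704 normalized counts in WT and 114805 and 137064 in EID (log2 fold change 0.27, limma adjusted p = 0.345). Trdn and Cacna1s, which hold and gate that channel, were at 0.18 and 0.090 (adjusted p = 0.371 and 0.797). Among 26 other genes of limb-girdle muscular dystrophies, 0 were called by any of the 3 tools, 1 had an unadjusted p under 0.05 in limma (Sgcd), and the median log2 fold change was 0.064. Ttn, the giant spring protein of the sarcomere, had 286274, 401756 and 330705 normalized counts in WT and 370185 and 563869 in EID. Its groups overlapped, with a log2 fold change of 0.44 (SE 0.22, limma adjusted p = 0.400), which was 0.14 without EID replicate 2 and 0.75 without EID replicate 1. Dag1, Plec and Lmna, the next most abundant, were at -0.084, -0.087 and -0.12 (adjusted p = 0.787, 0.726 and 0.470). With 2.23% of all tested genes called by limma, a count of 0 among 26 is near the background, and the 1 with an unadjusted p under 0.05 stands against 15.2%. Both EID values were above all WT values for 7 of the 26 and below them for 2, against 16.7% and 15.9% of all tested genes.

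Other proteins with several C2 domains, among them synaptotagmins, extended synaptotagmins and Munc13 proteins, were listed as 37 genes, of which 28 were tested. Of these, 0 were called higher and 2 lower, Doc2b and Unc13c, against 1.09% and 1.14% of all tested genes, and the median log2 fold change was -0.099. In 5 of the 28 the EID values lay above all WT values and in 7 below them, against 16.7% and 15.9% of all tested genes. An unadjusted p under 0.05 in limma was reached by 6 of the 28, against 15.2%. Doc2b, a calcium sensor of vesicle release, had 307, 189.6 and 153 normalized counts in WT and 54.6 and 66.3 in EID (log2 fold change -1.77 ± 0.30 SE, limma adjusted p = 0.0385). Unc13c, a vesicle priming factor of the Munc13 family, had 117, 149 and 89.5 against 33.1 and 20.6 (log2 fold change -2.11 ± 0.30 SE, limma adjusted p = 0.0236). Neither was called when WT replicate 1, WT replicate 2 or either EID sample was left out, with no filter on low values (limma adjusted p = 0.131 and 0.0947) or without the trend in limma (0.151 and 0.1004). Syt12 had 1934, 1882 and 1712 normalized counts in WT and 1445 and 1274 in EID and did not pass (log2 fold change -0.44, limma adjusted p = 0.0651). Unc13b, another Munc13 gene, named after its values were seen, had 272, 293 and 281 normalized counts in WT and 396 and 479 in EID. Both EID values were above all WT values, and it did not pass in limma (log2 fold change 0.63 ± 0.12 SE, adjusted p = 0.0553) but was called higher by DESeq2. The most abundant members, Esyt1, Sytl2 and Esyt2, had log2 fold changes of -0.10, -0.10 and 0.20 (adjusted p = 0.612, 0.735 and 0.447 from limma).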

How the data were processed

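The authors used STAR 2.5.1b to align to GRCm38 and featureCounts 1.4.6 for strand-aware counting of unique reads, and the deposited signal of a gene is its count over a DESeq2 1.34.0 size factor (tools from the submitters' processing notes). Every positive value (100.0%, within 0.01 of a read) was a whole number of times the lowest positive value of the same sample, which gave the reads back. Fold changes were tested on log2(normalized count + 1) with limma 3.58.1 (lmFit, eBayes with trend, two-sided, Benjamini-Hochberg, threshold 0.05) in R 4.3.3, over all 18156 genes with at least 5 normalized counts in 1 sample. edgeR 4.0.16 called 408 genes and DESeq2 1.42.0 969 on the recovered reads. The limma fit with trend, edgeR and DESeq2 were also run on simulated counts with known changes, and the other alternatives were not. Single values were compared with exact permutation tests over the 10 assignments of 3 and 2 labels. Replicates differed by more than sampling noise (chi-square per degree of freedom 24.2 to 34.4). Names, positions and lengths came from GENCODE M21 (GRCm38), which may differ from the annotation the authors counted with. Promoter windows were found for Dysf, Myof and Fer1l5. The members and lists were chosen with earlier results of these data known. Named genes are the ferlins, the called and the 4 most abundant uncalled genes of each list, the 5 genes most like Dysf and Myof (1 of them is not reported here), and their nearest neighbours. Of the smaller marker lists mostly sums are given. Sgcd, Syt7, Parvb, Unc13b, Myf5, Cldn5, Robo4, Tie1, Esam, Erg, Dcn, Lum, Pi16, Ncmap, Ptprc, Fcgr1, Pou4f3, Atoh1, Ush1c and Snap25 were named after their values were seen.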

Additional observations from a re-analysis of the deposited data

How the results depend on the processing

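Alternatives were other pseudocounts, filters and scalings, edgeR, DESeq2, limma with no trend, a replicate block, and the omission of each sample (with 1 Elmo2EID/EID sample left, it was assumed to vary like the others). Over all 16, with the marker-relative scaling added once results were known, Dysf stayed called, with a log2 fold change of 1.28 to 1.36 and an adjusted p of at most 0.0271, and Myof and Fer1l6 stayed uncalled, at 0.044 to 0.077 and -1.01 to -0.35. The count of called members was 1 in each. Under the 9 that apply to single values, the Dysf to Myof log2 ratio moved between 1.20 and 1.32, the Dysf share difference between 19.5 and 22.2 percentage points and the summed counts between 0.74 and 0.88, all keeping their direction. Over the whole table, 155 genes were called with no filter, 969 with DESeq2, 144 without the trend, 224 with the replicate block and 54 to 349 with a sample left out. Partners called fell to 0 with no filter, without the trend, with the replicate block and with any sample left out (0 to 0). Genes with several C2 domains fell to 0 with no filter, without the trend and with the replicate block, came to 4 with DESeq2 (Syt12 and Unc13b added), and to 0 to 2 with a sample left out. The pairing by number was not borne out: across 13769 genes, replicate 1 minus 2 in WT and the same in Elmo2EID/EID had a correlation of -0.238. The block ended the calls of Trim72, Doc2b and Unc13c (limma adjusted p = 0.0847, 0.0539 and 0.0565) and changed no call of a ferlin. It changed no other call among the genes followed through the alternatives. Of the cell type markers only Myo7a was followed, and the genes like Myof were not. Among uncalled genes, direction turned with the block for Cav3 (-0.075) and Cacna1s (-0.0089), and with a sample left out the range spanned 0 for Cav3 (-0.075 to 0.17), Cavin1 (-0.012 to 0.12), Cacna1s (-0.038 to 0.22), Dag1 (-0.24 to 0.070) and Cyp26a1 (-0.43 to 0.77). Fer1l5 and Otof, at 0 to 2 reads, gave no fit. With 2 against 3 samples no permutation test can pass 0.05.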
